A study of Mus musculus with 6 samples.

Results

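The proteasome is the barrel-shaped protease that degrades ubiquitin-tagged proteins. Its 20S core is built from rings of alpha subunits, which gate the entry pore, and rings of beta subunits, of which *Psmb5*, *Psmb6* and *Psmb7* carry the cutting sites. The 19S cap binds ubiquitin, unfolds the substrate with a ring of ATPases and feeds it into the core, while the PA28 and PA200 activators can dock in place of the cap. In cells exposed to interferon the catalytic beta subunits are replaced by *Psmb8*, *Psmb9* and *Psmb10*, giving the immunoproteasome that produces peptides for MHC class I. In skeletal muscle the proteasome is best known for breaking down contractile protein during wasting and remodelling.

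The genes described here are 38 proteasome subunits and activators of 18089 genes in the deposited table, taken from a fixed list of symbols and not by their values: 7 alpha subunits, 7 constitutive beta subunits, 3 immunoproteasome subunits, 6 ATPases of the 19S cap, 11 non-ATPase subunits of the cap and 4 activators. All 38 passed edgeR's filter on low counts, which kept 14395 genes. They were measured by RNA-seq in muscle (gastrocnemius in the study's methods) of young adult male C57BL/6 mice, 3 wild type (WT) and 3 GPR174-KO, on day 7 after hindlimb ischemia (HLI), in which a stretch of the femoral artery is tied off and removed. GPR174 is a G protein-coupled receptor of lymphocytes encoded on the X chromosome, and the deletion is present in all cells of the knockout males, so a difference cannot be assigned to a cell type. The comparison asks how the ischemic muscle of the knockout differed from that of WT mice.

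Total counts lay between 18417107 and 18695036 in WT and between 19173051 and 19394505 in GPR174-KO libraries. *Gpr174* had 8, 2 and 5 counts in WT and 1, 0 and 0 in GPR174-KO replicates 1, 2 and 3. Replicate 2 lay between replicates 1 and 3 in 86.1% of the 3680 genes with a mean of at least 1000 counts in WT and in 77.1% in GPR174-KO. For the subunits the same held for 27 of 38 in WT and 32 of 38 in GPR174-KO libraries in scaled counts. For any 1 gene, each of 3 independent replicates would be equally likely to lie in the middle. Whether the libraries are independent was not tested. In TPM, an abundance scaled for transcript length to the same sum in every library, 15 marker genes of mature muscle fibres took 20.2%, 18.7% and 16.2% of the WT libraries and 9.79%, 9.41% and 8.81% of the GPR174-KO libraries. All 15 were called lower in GPR174-KO, as were 7 of 8 endothelial markers. The other endothelial marker, *Vwf*, was called higher (edgeR log2 fold change 0.38, adjusted p = 0.00205). Of the 13 leukocyte markers, 11 were tested and 7 were called higher, while *Cd3e* of T cells was at 0.72 to 1.72 TPM and *S100a8* and *S100a9* of neutrophils were too low to test. Of the markers of regenerating fibres, 6 of 9 were called higher. Fibroblast markers were split, with 3 of 7 higher and 3 lower. Of all tested genes, 27.0% were called higher and 27.6% lower. In whole tissue, fewer cells of a type and less RNA per cell cannot be told apart.

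Relative to the typical gene, proteasome subunits were lower in GPR174-KO muscle. Under TMM scaling, which sets the median gene to no change, 28 of the 38 had an adjusted p below 0.05 and a negative log2 fold change (edgeR quasi-likelihood test, Benjamini-Hochberg adjustment over all tested genes), against 27.6% of all tested genes called lower. None was called higher: 0 of 38 passed at an adjusted or an unadjusted p under 0.05, and 0 with DESeq2, against 27.0% of all tested genes called higher. The differences were small. The subunits' median log2 fold change was -0.24, with a range from -0.66 to 0.23, beside 0.00 for all tested genes. No subunit (0 of 38) reached the study's 2-fold threshold, a log2 fold change beyond 1 in size, in either direction, where 4.84% of tested genes did so downward and 3.45% upward. Against a null of a 1.2-fold change, 7 subunits were called lower, where 16.0% of all tested genes were. These were *Psma6*, *Psmb7*, *Psmc5*, *Psmd6*, *Psmd8*, *Psmd11* and *Psmd12*. The count of 28 was 18 without GPR174-KO replicate 2. When replicates 1 and 3 of both genotypes were fitted on their own, it was 0 in edgeR, as for all genes, although 14 subunits were lower at an unadjusted p under 0.05 and the lowest adjusted p of a subunit was 0.0548. With replicates 1 and 2 alone, 27 subunits were called lower, and with replicates 2 and 3 alone, 24 were. The calls thus depended on replicate 2 and not only on the number of libraries.

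The direction of these small differences depended on what the libraries were scaled to. With total counts, the median of all tested genes moved to 0.28 on the log2 scale and that of the subunits to 0.03, and the gap between the subunits and the typical gene was -0.25 under both scalings. In that fit 7 subunits were called higher (50.7% of all tested genes) and 4 lower (14.0%), and 18 of the 38 changed sign. The 4 that were called lower under TMM, under total counts, under total counts without the mature fibre genes and in both limma fits on FPKM were *Psmb7*, *Psmc5*, *Psmd6* and *Psmd12*. When the mature fibre genes were left out of the total, the median of all tested genes was 0.15, 15 subunits were called lower (19.5% of all tested genes) and 1, *Psme3*, was called higher (39.6%).

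**Figure D1:**
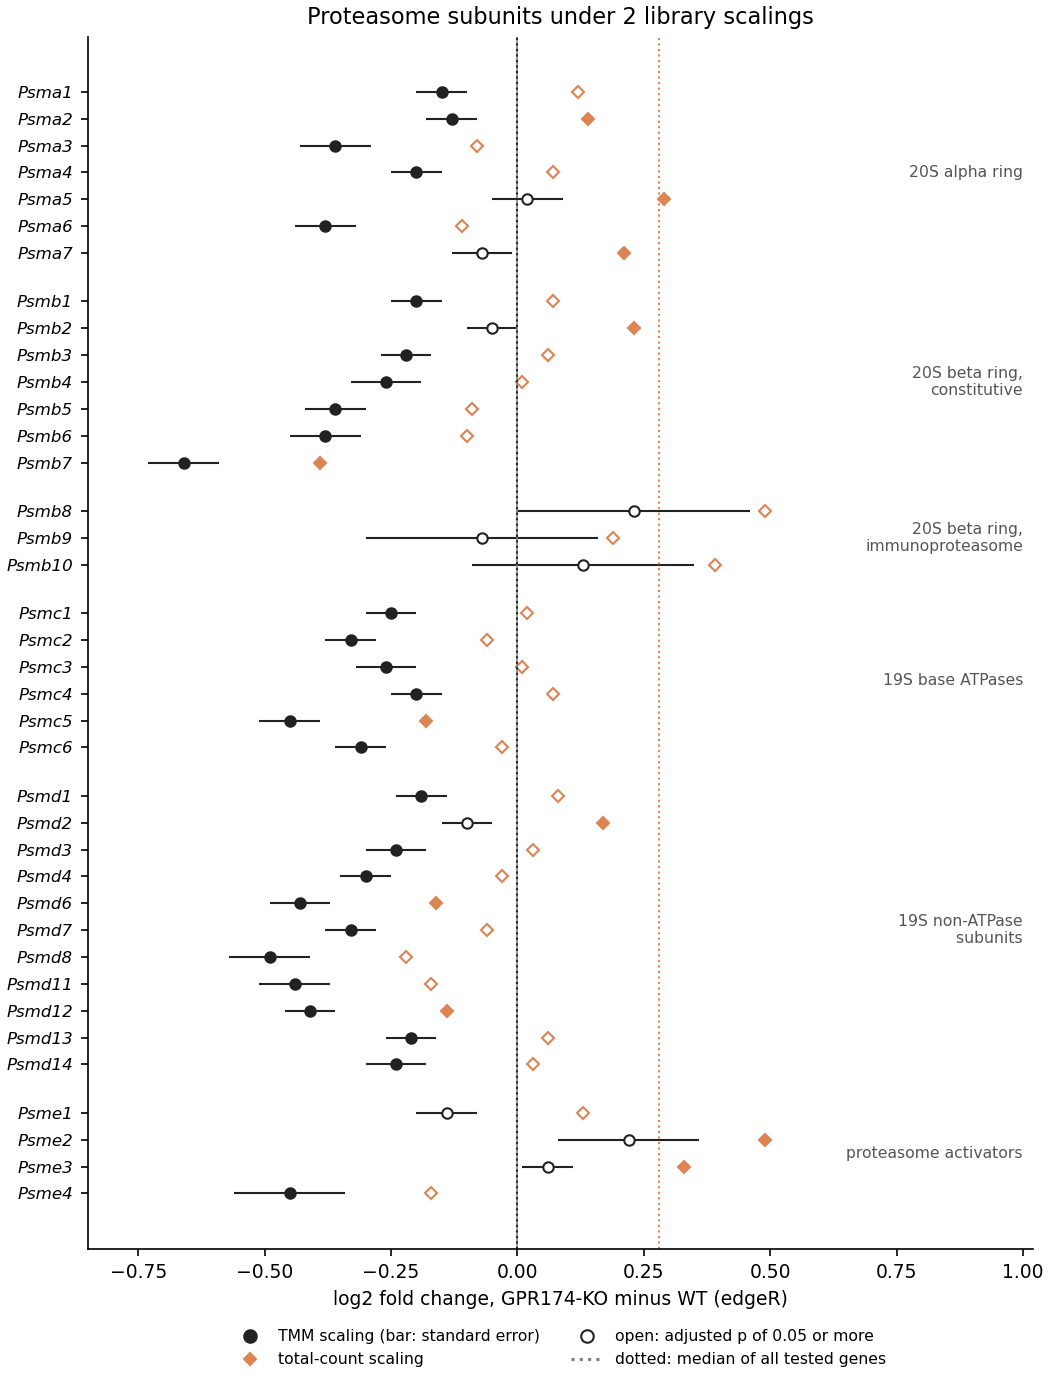
Log2 fold change of each of the 38 subunits, GPR174-KO minus WT, on the x axis under TMM scaling (black circles, bars are standard errors) and under total-count scaling (orange diamonds); filled symbols have an adjusted p below 0.05 and dotted lines mark the median of all tested genes, 0.00 and 0.28. Most subunits sit to the left of the dotted line of their own scaling, with *Psmb7* lowest at -0.66 and -0.39.

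The same split is visible in the summed RNA level of the subunits. The 38 subunits together had 5436, 5697 and 6070 TPM in WT replicates 1, 2 and 3 and 6162, 6207 and 6242 TPM in the GPR174-KO replicates. In TPM the subunits thus took 0.544% to 0.607% of the WT libraries and 0.616% to 0.624% of the GPR174-KO libraries. Every GPR174-KO library was above every WT library. Summed as CPM, counts scaled to library size with TMM, they had 4357, 4375 and 4381 in WT and 3679, 3621 and 3515 in GPR174-KO, and every GPR174-KO library was below. Gene by gene, TPM did not overlap between the genotypes in 19 subunits that were higher in GPR174-KO (64.0% of all tested genes) and in 2 that were lower (11.5%), *Psmb7* and *Psmc5*. In scaled CPM, 30 were lower without overlap (32.4% of all tested genes) and 1, *Psme3*, was higher (33.1%). The share of the libraries taken by mature fibre genes also differed between the genotypes, and its part in the difference between the scales was not tested. Leaving those genes out of the total brought the median of the subunits from 0.03 to -0.10 on the log2 scale. The median of all tested genes went from 0.28 to 0.15, so the gap stayed at -0.25.

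**Figure D2:**
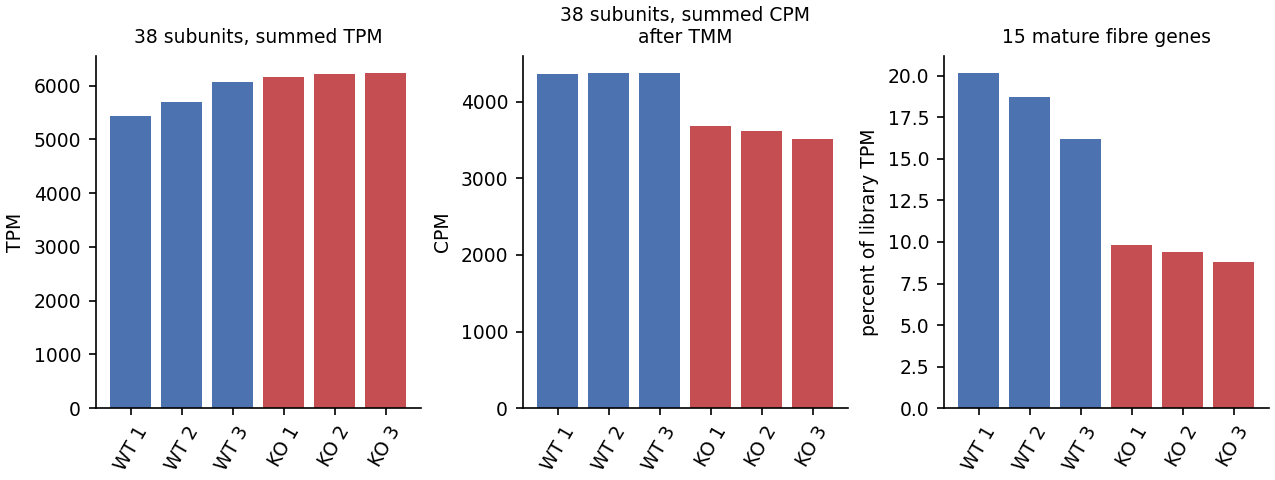
Bars give, for each of the 6 libraries (WT blue, GPR174-KO red), the summed TPM of the 38 subunits, their summed CPM after TMM scaling, and the percent of library TPM taken by 15 mature fibre genes. The summed TPM is higher and the summed CPM lower in GPR174-KO, while the fibre genes take 16.2% to 20.2% in WT and 8.81% to 9.79% in GPR174-KO.

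Among the constitutive beta subunits, 6 of 7 were called lower under TMM scaling, against 27.6% of all tested genes. *Psmb7*, the trypsin-like catalytic subunit, showed the largest decrease of the complex. It had 324, 318 and 299 TPM in WT replicates 1, 2 and 3 and 259, 259 and 262 TPM in GPR174-KO, with no overlap between the groups. The edgeR log2 fold change came to -0.66 (standard error 0.07, adjusted p = 0.00107) and -0.39 with total counts (adjusted p = 0.0014). The other catalytic subunits differed little in TPM. *Psmb6*, the caspase-like subunit, had 296, 301 and 289 TPM in WT and 300, 302 and 296 in GPR174-KO, and its log2 fold change was -0.38 under TMM (adjusted p = 0.00368) and -0.10 with total counts (adjusted p = 0.114). *Psmb5*, the chymotrypsin-like subunit and the main target of proteasome inhibitor drugs, had 252, 251 and 245 TPM in WT and 258, 253 and 254 in GPR174-KO, with -0.36 under TMM (adjusted p = 0.00422) and -0.09 with total counts (adjusted p = 0.165). For both, TMM-scaled CPM was lower in every GPR174-KO library, while in TPM the groups overlapped for *Psmb6* and were slightly higher in every GPR174-KO library for *Psmb5*. *Psmb2*, a structural ring subunit, lay at the other end of the ring. It had 153, 157 and 172 TPM in WT and 205, 203 and 205 in GPR174-KO, and its log2 fold change of -0.05 under TMM (adjusted p = 0.438) became 0.23 with total counts (adjusted p = 0.0118). *Psmb1*, also structural, had 224, 235 and 252 TPM in WT and 270, 275 and 265 in GPR174-KO, with -0.20 under TMM (adjusted p = 0.0174) and 0.07 with total counts. *Psmb3* and *Psmb4* had log2 fold changes of -0.22 and -0.26 under TMM, both called, and 0.06 and 0.01 with total counts, neither called.

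The immunoproteasome subunits were not called and had the widest spread of all subunits among the WT libraries. *Psmb8*, which replaces *Psmb5*, had 27.7, 38.2 and 61.6 TPM in WT replicates 1, 2 and 3 and 59.5, 63.1 and 71.7 in GPR174-KO. *Psmb10*, which replaces *Psmb7*, had 23.5, 30.8 and 49.3 TPM in WT and 43.9, 48.7 and 54.6 in GPR174-KO. *Psmb9*, which replaces *Psmb6*, had 18.5, 27.5 and 41.8 TPM in WT and 32.7, 35.0 and 41.1 in GPR174-KO. WT replicate 3 was in the range of the GPR174-KO libraries for *Psmb8* and *Psmb10* and just above it for *Psmb9*. WT replicate 1 was below the range for all 3 and WT replicate 2 as well, and the highest WT library was 2.23, 2.27 and 2.1 times the lowest for *Psmb8*, *Psmb9* and *Psmb10*. Among the 31 other core and cap subunits that ratio was at most 1.31 in WT. Under TMM none of the immunoproteasome subunits was called, with log2 fold changes of 0.23 (standard error 0.23, adjusted p = 0.428), -0.07 (standard error 0.23, adjusted p = 0.807) and 0.13 (standard error 0.22, adjusted p = 0.643) in that order. *Psmb9* was 0.19 with total counts, also not called. These values rested on WT replicates 1 and 3, which moved them in opposite directions. Without WT replicate 3, *Psmb8* was at 0.55 (adjusted p = 0.00421), *Psmb10* at 0.43 (adjusted p = 0.00904) and *Psmb9* at 0.23 (adjusted p = 0.22). Without WT replicate 1, *Psmb8* was at 0.03 (adjusted p = 0.892), *Psmb10* at -0.05 (adjusted p = 0.818) and *Psmb9* at -0.28 (adjusted p = 0.177).

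The ratio of an immunoproteasome subunit to the subunit it replaces is taken within a library and does not depend on library scaling. In TPM, *Psmb10* was at 7.25%, 9.69% and 16.5% of *Psmb7* in WT replicates 1, 2 and 3 and at 16.9%, 18.8% and 20.8% in GPR174-KO, without overlap. The mean log2 ratio was -3.25 ± 0.60 (SD, n = 3) in WT and -2.41 ± 0.15 (SD, n = 3) in GPR174-KO, a difference of 0.84 (2-sided exact permutation test, p = 0.1, the smallest that 3 against 3 can give, and 0.3 adjusted over 3 ratios). *Psmb7*, the denominator, was itself lower in every GPR174-KO library. *Psmb8* was at 11%, 15.2% and 25.1% of *Psmb5* in WT and at 23%, 24.9% and 28.3% in GPR174-KO, with overlap, a difference of 0.65 in the log2 ratio (exact p = 0.3, adjusted 0.45). *Psmb9* was at 6.23%, 9.13% and 14.5% of *Psmb6* in WT and at 10.9%, 11.6% and 13.9% in GPR174-KO, also with overlap, a difference of 0.36 (exact p = 0.5, adjusted 0.5). Without WT replicate 3 the differences in log2 ratio were 1.16, 0.97 and 0.68 for *Psmb10*, *Psmb8* and *Psmb9*, and without WT replicate 1 they were 0.57, 0.37 and 0.07.

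**Figure D3:**
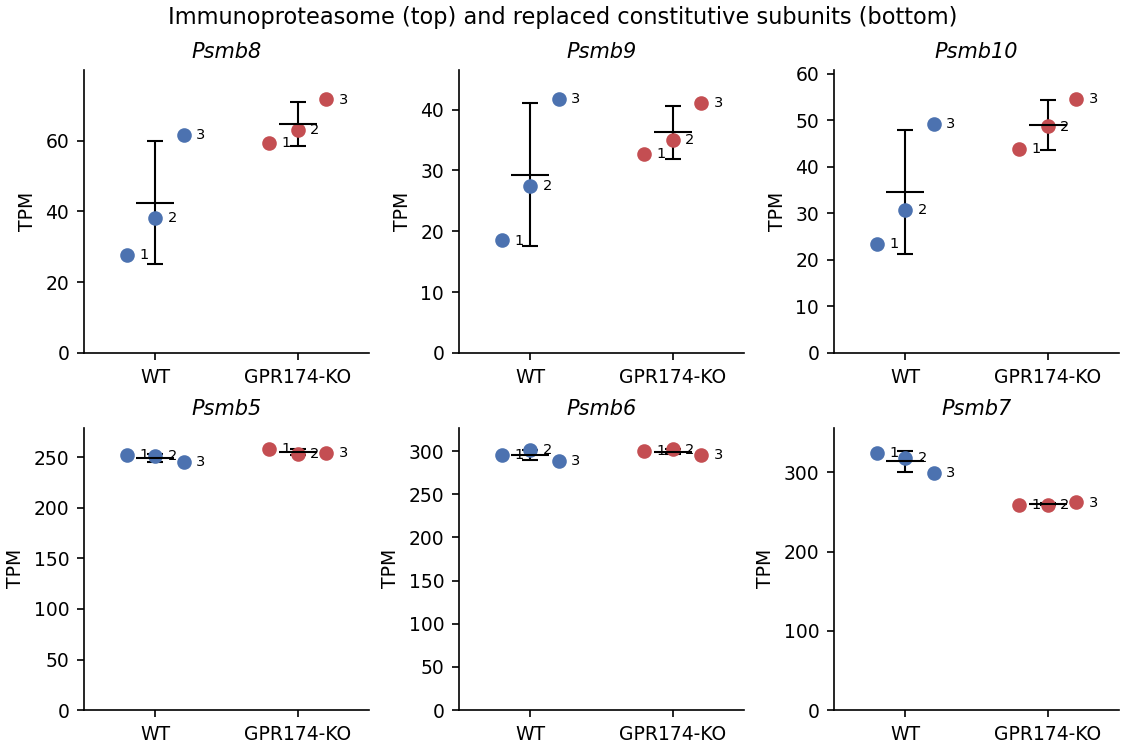
TPM of *Psmb8*, *Psmb9* and *Psmb10* (top) and of the subunits they replace, *Psmb5*, *Psmb6* and *Psmb7* (bottom), in each library; points are numbered by replicate, and bars give the mean and SD of 3 libraries per genotype. WT replicate 3 is level with the GPR174-KO libraries in the top row, where WT values spread from 18.5 to 61.6 TPM, whereas *Psmb7* is lower in every GPR174-KO library.

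Genes of MHC class I presentation were examined beside the immunoproteasome. Of 12 genes, 3 were called higher under TMM, near the 27.0% of all tested genes, and the other 9 were not called, the lowest being *H2-K1* at -0.01 (adjusted p = 0.983, and 0.25 with total counts), with a median log2 fold change of 0.15. The 3 were *Pdia3* (0.71, standard error 0.11, adjusted p = 0.00278), *Canx* (0.55) and *Calr* (0.55, standard error 0.08, adjusted p = 0.00202), chaperones of the endoplasmic reticulum that fold many glycoproteins besides MHC class I. *Pdia3* had 161, 184 and 237 TPM in WT and 417, 409 and 411 in GPR174-KO. *Calr* had 320, 358 and 411 TPM in WT and 697, 684 and 694 in GPR174-KO. The interferon-responsive members also spread widely among the WT libraries. *Tap1*, the peptide transporter whose gene neighbours *Psmb9* in the MHC region, had 14.3, 25.3 and 42.0 TPM in WT replicates 1, 2 and 3 and 33.0, 36.5 and 40.7 in GPR174-KO (log2 fold change 0.06, standard error 0.31, adjusted p = 0.887). *B2m*, *H2-K1*, *H2-D1*, *Irf1* and *Nlrc5* were likewise lowest in WT replicate 1 and not called. The summed TPM of the leukocyte markers was 1373, 1678 and 2178 in WT and 4451, 4532 and 4651 in GPR174-KO. WT replicate 3 was therefore below every GPR174-KO library for this sum and level with them for the immunoproteasome. Single leukocyte markers were not all like the sum. In TPM, 9 of the 13 were higher without overlap in GPR174-KO (64.0% of all tested genes) and 4 overlapped. Of these 4, *Nkg7* had 5.45, 8.46 and 12.3 TPM in WT and 5.84, 8.25 and 9.04 in GPR174-KO. The part of leukocytes in the result was not tested. *Lyz2* holds most of that marker sum, and *Ptprc*, the pan-leukocyte gene, had 13.1, 17.2 and 23.7 TPM in WT and 35.6, 37.6 and 45.8 in GPR174-KO.

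In the alpha ring, 5 of 7 subunits were called lower under TMM, against 27.6% of all tested genes. TPM was higher without overlap in GPR174-KO for 5 of 7, where 64.0% of all tested genes were. *Psma6* had 182, 181 and 180 TPM in WT and 185, 181 and 182 in GPR174-KO, with a log2 fold change of -0.38 under TMM (standard error 0.06, adjusted p = 0.00274) and -0.11 with total counts (adjusted p = 0.0828). *Psma3* had 205, 213 and 224 TPM in WT and 230, 220 and 213 in GPR174-KO, with -0.36 (standard error 0.07, adjusted p = 0.0052) and -0.08 with total counts. *Psma5* had 84.8, 88.2 and 107 TPM in WT and 125, 124 and 123 in GPR174-KO, with 0.02 under TMM (adjusted p = 0.785) and 0.29 with total counts (adjusted p = 0.0232). *Psma5* thus stayed near the typical gene while *Psma6* and *Psma3* were below it. *Psma7* had 128, 139 and 146 TPM in WT and 175, 175 and 163 in GPR174-KO, with -0.07 under TMM (adjusted p = 0.4) and 0.21 with total counts (adjusted p = 0.0299). *Psma4* had -0.20 under TMM (adjusted p = 0.0156) and 0.07 with total counts. *Psma1* (-0.15, adjusted p = 0.0487) and *Psma2* (-0.13, adjusted p = 0.0455) were called by a narrow margin. *Psma1* was not called when any 1 library was left out. When 1 library was left out, *Psma2* was called without WT replicate 3 (adjusted p = 0.0215) and not called in the other 5 fits. Neither was called with the replicate number as a block (adjusted p = 0.109 and 0.0777) or with DESeq2 (0.113 and 0.137). With total counts they were at 0.12 and 0.14.

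All 6 ATPases of the cap, the ring that pulls substrates into the core, were called lower under TMM, against 27.6% of all tested genes. The median log2 fold change of the 6 was -0.28. *Psmc5* had 183, 183 and 181 TPM in WT and 168, 179 and 177 in GPR174-KO, without overlap, and a log2 fold change of -0.45 under TMM (standard error 0.06, adjusted p = 0.00148) and -0.18 with total counts (adjusted p = 0.0163). *Psmc2* had 143, 147 and 162 TPM in WT and 155, 159 and 157 in GPR174-KO, with -0.33 (standard error 0.05, adjusted p = 0.00213) and -0.06 with total counts. These were the lowest of the ring, and *Psmc2* overlapped in TPM. *Psmc4* had 140, 144 and 160 TPM in WT and 167, 167 and 172 in GPR174-KO, with -0.20 (standard error 0.05, adjusted p = 0.0117) and 0.07 with total counts. *Psmc1* had 161, 170 and 184 TPM in WT and 188, 187 and 192 in GPR174-KO, with -0.25 (standard error 0.05, adjusted p = 0.00565) and 0.02 with total counts. Both were thus higher in TPM in every GPR174-KO library and lower than the typical gene. *Psmc3* (-0.26) and *Psmc6* (-0.31) were called as well, and with total counts they were at 0.01 and -0.03.

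Of the 11 non-ATPase subunits of the cap, 10 were called lower under TMM, against 27.6% of all tested genes. The median log2 fold change of the 11 was -0.30. *Psmd8*, a lid subunit and the most abundant member in TPM, had 333, 380 and 438 TPM in WT and 349, 360 and 360 in GPR174-KO, with -0.49 under TMM (standard error 0.08, adjusted p = 0.00259) and -0.22 with total counts (adjusted p = 0.0848). *Psmd11*, also of the lid, had 85.9, 96.8 and 112 TPM in WT and 92.2, 93.9 and 95.5 in GPR174-KO, with -0.44 (standard error 0.07, adjusted p = 0.00214) and -0.17 with total counts (adjusted p = 0.121). For both, WT replicate 3 was the highest and WT replicate 1 the lowest library in TPM. *Psmd6* (-0.43 under TMM, -0.16 with total counts) and *Psmd12* (-0.41 and -0.14), also of the lid, were called under both scalings. *Psmd2*, the base scaffold that holds ubiquitin shuttles, was the member of this class that was not called: it had 106, 112 and 114 TPM in WT and 128, 138 and 141 in GPR174-KO, with -0.10 under TMM (adjusted p = 0.131) and 0.17 with total counts (adjusted p = 0.0344). *Psmd1*, the other base scaffold, had 78.5, 79.6 and 84.4 TPM in WT and 89.5, 92.4 and 96.2 in GPR174-KO, with -0.19 (standard error 0.05, adjusted p = 0.0116) and 0.08 with total counts. *Psmd4*, a ubiquitin receptor, had -0.30 under TMM (adjusted p = 0.00268) and -0.03 with total counts (adjusted p = 0.743). *Psmd14*, the deubiquitinase of the lid, had -0.24 under TMM (adjusted p = 0.0112) and 0.03 with total counts. *Psmd7* (-0.33), *Psmd3* (-0.24) and *Psmd13* (-0.21) completed the class, and with total counts they were at -0.06, 0.03 and 0.06, none called.

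The activators went different ways. *Psme4*, which encodes PA200, was called lower under TMM, with 50.1, 47.5 and 41.2 TPM in WT and 42.6, 43.8 and 47.8 in GPR174-KO, overlapping in TPM, and a log2 fold change of -0.45 (standard error 0.11, adjusted p = 0.0116) or -0.17 with total counts (adjusted p = 0.124). *Psme3*, which encodes the nuclear PA28 gamma, had 63.7, 66.8 and 73.0 TPM in WT and 88.2, 92.8 and 96.5 in GPR174-KO, with 0.06 under TMM (standard error 0.05, adjusted p = 0.315) and 0.33 with total counts (adjusted p = 0.00399). *Psme2*, the interferon-inducible PA28 beta, had 57.8, 73.9 and 96.2 TPM in WT and 114, 114 and 116 in GPR174-KO, with 0.22 under TMM (standard error 0.14, adjusted p = 0.212) and 0.49 with total counts (adjusted p = 0.0359). Under TMM, *Psme2* was at 0.39 without WT replicate 3 (adjusted p = 0.00491) and at 0.09 without WT replicate 1 (adjusted p = 0.421). Its near-identical copy *Psme2b* had 2.44 to 14.1 TPM, so reads could have been split between the 2. *Psme1*, PA28 alpha, had 101, 107 and 124 TPM in WT and 125, 128 and 141 in GPR174-KO, with -0.14 (adjusted p = 0.0723) and 0.13 with total counts. *Psme1* overlaps *Emc9* and *Psme4* overlaps *Erlec1* in the RefSeq annotation, with 35.1 to 47.7 and 37.2 to 49.5 TPM, and the use of strand in counting is not given in the sources used here.

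Setting each subunit against the median subunit of the same library removes the scaling altogether. It shows which members differed in RNA relative to the other subunits, and no protein was measured. On this measure, the log2 of a subunit's TPM over that of the median subunit, 13 of 38 were lower in GPR174-KO without overlap (17.7% of all tested genes on the same measure), 7 were higher without overlap (51.7%) and 18 overlapped. *Psmb7* moved from 1.14 in WT to 0.70 in GPR174-KO, a difference of -0.44, and so from above *Psmb6* in WT (1.05) to below it in GPR174-KO (0.90). *Psmd8* differed by -0.27, *Psmc5* and *Psmd11* by -0.23 each, *Psmd6* by -0.21 and *Psmd12* by -0.19. *Psme2* was higher by 0.45, *Psme3* by 0.28, *Psma5* by 0.25 and *Psmb2* by 0.17, all without overlap. *Psmb8* and *Psmb10* were higher by 0.51 and 0.40 with overlap. No test was run on these values, which were chosen after the scaling results were seen.

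**Figure D4:**
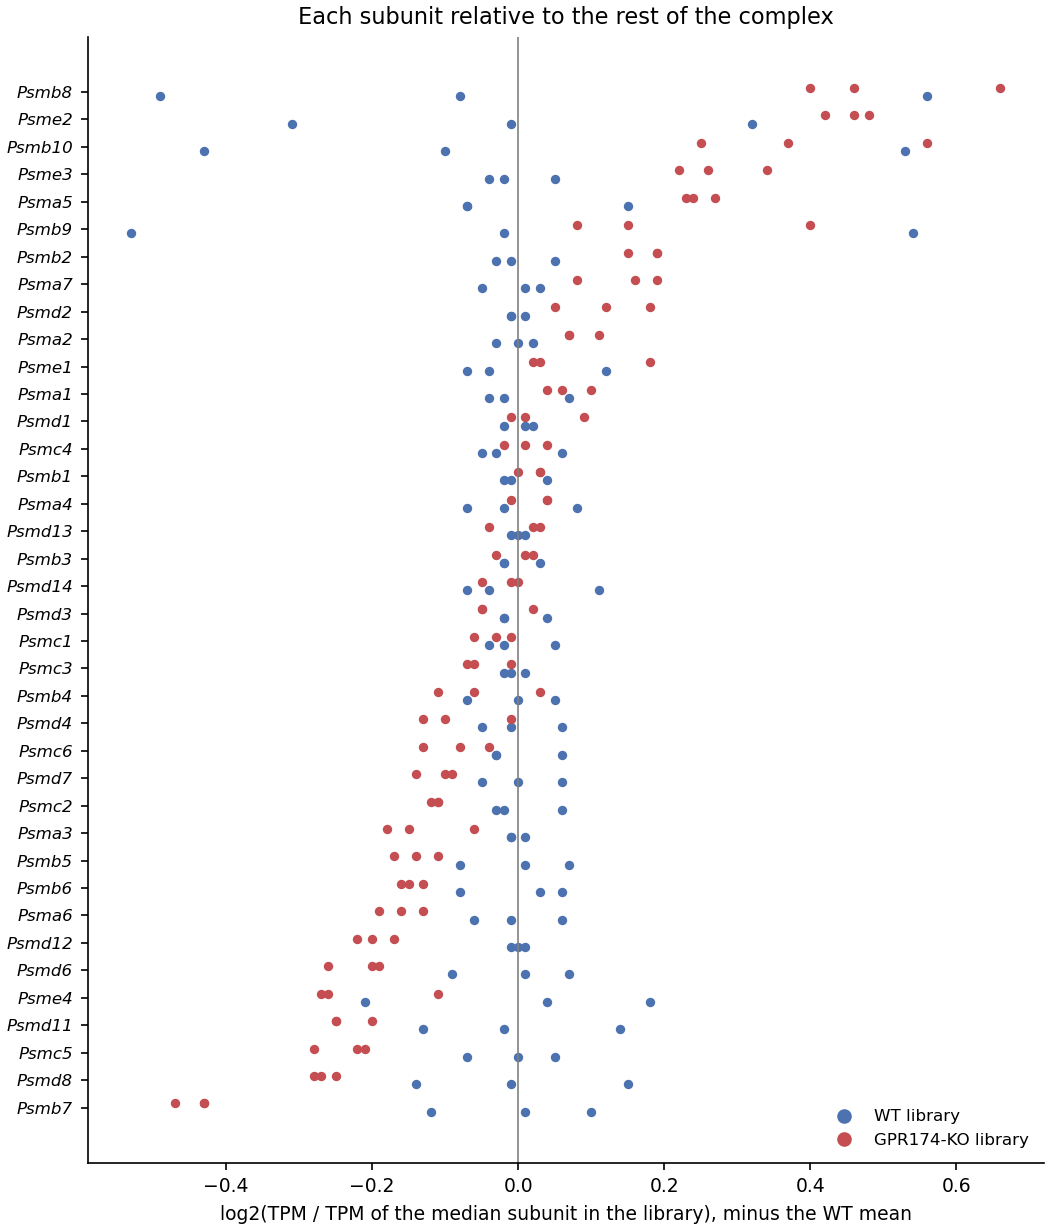
Each row is a subunit and each point a library (WT blue, GPR174-KO red); the x axis is the log2 ratio of the subunit's TPM to that of the median subunit of the library, minus the WT mean. *Psmb7* stands apart at the bottom (difference -0.44), and the WT points of *Psmb8*, *Psmb9*, *Psmb10* and *Psme2* spread most.

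Most proteasome genes are switched on together by NRF1, encoded by *Nfe2l1*, a membrane-bound factor that is cut free when the proteasome is overloaded and then binds antioxidant response elements. *Nfe2l1* was lower in GPR174-KO, with 211, 225 and 248 TPM in WT and 184, 185 and 185 in GPR174-KO, without overlap. Under TMM it changed by -0.69 on the log2 scale (standard error 0.06, adjusted p = 0.00073) and by -0.42 with total counts (adjusted p = 0.00255). *Nfe2l2*, which encodes the related oxidative stress factor NRF2, was higher, with 52.6, 56.1 and 60.6 TPM in WT and 95.8, 97.9 and 101 in GPR174-KO, and a log2 fold change of 0.41 (standard error 0.04, adjusted p = 0.00103). Of the 8 genes of the NRF1 system, 4 were called lower (*Nfe2l1*, *Btrc*, *Fbxw7* and *Ngly1*) and 3 higher (*Nfe2l2*, *Sel1l* and *Syvn1*), beside 27.6% and 27.0% of all tested genes. *Btrc* and *Fbxw7* belong to ubiquitin ligases that remove NRF1, *Ngly1* strips its sugars (-0.22 under TMM and 0.05 with total counts), and *Sel1l* and *Syvn1* belong to the complex that extracts it from the endoplasmic reticulum. *Ddi2*, the protease that cuts it, had 0.36 (adjusted p = 0.0603).

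Promoters of 32 of the 38 subunits matched the RefSeq windows of GRCm38.p6, from 250 bases before to 50 bases after the transcription start. *Psmb1*, *Psmb2*, *Psmb7*, *Psmc3*, *Psmd3* and *Psmd7* had no window and were not searched. The core of the antioxidant response element, TGACNNNGC on either strand, was found in 5 of the 32 (15.6%), near the 14% of 27025 genes with a window. The IRF motif, GAAA repeated after any 2 bases on either strand and bound by interferon regulatory factors, was found in 3 of the 32 (9.38%) and in 3.99% of all genes, and in no gene did the motifs overlap. The windows are shown because NRF1 and interferon are known inputs to these genes. Motif letters are in capitals, read along the gene's strand. Those with the antioxidant element are:
Psmb5 (chr14:54618024-54618052, minus strand): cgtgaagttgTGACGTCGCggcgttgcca
Psmb6 (chr11:70525338-70525366, plus strand): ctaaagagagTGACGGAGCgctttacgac
Psmc6 (chr14:45329587-45329615, plus strand): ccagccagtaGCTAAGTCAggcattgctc
Psmd12 (chr11:107479278-107479299, plus strand): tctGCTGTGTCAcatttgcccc
Psme4 (chr11:30771758-30771786, plus strand): cgctgcggctGCAGCGTCAccagaagagc
Those with the IRF motif are:
Psmb3 (chr11:97703261-97703290, plus strand): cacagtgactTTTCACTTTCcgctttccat
Psmd4 (chr3:95042675-95042704, minus strand): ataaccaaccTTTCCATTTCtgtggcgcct
Psme1 (chr14:55578493-55578522, plus strand): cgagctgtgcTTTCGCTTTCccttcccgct
All 5 subunits with the antioxidant core were called lower under TMM, with log2 fold changes from -0.31 for *Psmc6* to -0.45 for *Psme4*. With total counts only *Psmd12* of these was called (edgeR log2 fold change -0.14, adjusted p = 0.0461). Of all 38 subunits, with or without a window, 28 were called lower under TMM, as were 27.6% of all tested genes. Calls of all genes with the motif were not counted. Of the 3 with the IRF motif, *Psmb3* and *Psmd4* were called lower and *Psme1* was not called. The windows of *Psmb8*, *Psmb9* and *Psmb10* held neither set of letters. A match describes letters and no binding was measured.

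Of 8 assembly chaperones, 2 were called lower and 1 higher under TMM, beside 27.6% and 27.0% of all tested genes. *Pomp*, which matures the beta rings, had 189, 187 and 186 TPM in WT and 201, 209 and 208 in GPR174-KO, with -0.26 (standard error 0.06, adjusted p = 0.00923) and 0.02 with total counts. *Psmd10*, a chaperone of the cap, had 13.5, 15.2 and 15.5 TPM in WT and 23.5, 24.2 and 22.1 in GPR174-KO, with 0.27 (standard error 0.08, adjusted p = 0.0243). It was higher under every scaling, though the call was lost without GPR174-KO replicate 1 (adjusted p = 0.0775) or 2 (0.1), without WT replicate 1 (0.0508) or 2 (0.0528), with DESeq2 (0.0903) and with a replicate block (0.0506). Of 15 associated genes, 14 were tested, 6 were called lower and 1 higher, against the same shares of all tested genes. *Ecpas*, which holds cap and core together and was the lowest beside *Zfand5* (also -0.62), had 41.0, 37.8 and 31.6 TPM in WT and 29.8, 30.9 and 33.8 in GPR174-KO, overlapping, with -0.62 (standard error 0.13, adjusted p = 0.00638). *Ubqln2*, a shuttle for ubiquitinated proteins, was the highest called, with 22.0, 21.6 and 22.2 TPM in WT and 32.1, 34.4 and 36.8 in GPR174-KO, and 0.26 (standard error 0.06, adjusted p = 0.00812). *Usp14*, a deubiquitinase that binds the cap, had 38.4, 39.6 and 42.6 TPM in WT and 47.6, 49.2 and 49.1 in GPR174-KO, with -0.10 (adjusted p = 0.0965) and 0.17 with total counts (adjusted p = 0.0201). *Psmf1*, the inhibitor PI31, had 13.7, 13.2 and 14.4 TPM in WT and 16.9, 16.9 and 18.9 in GPR174-KO, with -0.05 (adjusted p = 0.492) and 0.23 with total counts (adjusted p = 0.0161).

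Of 9 genes that supply ubiquitin, 4 were called lower and 1 higher, beside 27.6% and 27.0% of all tested genes. *Nploc4*, a cofactor of the p97 segregase, was the lowest, with 40.0, 44.9 and 50.1 TPM in WT and 45.5, 46.4 and 48.5 in GPR174-KO, overlapping. It had -0.32 under TMM (standard error 0.05, adjusted p = 0.00322) and -0.05 with total counts (adjusted p = 0.566). *Uba6*, the alternative ubiquitin-activating enzyme, was the gene called higher, with 2.57, 2.46 and 2.95 TPM in WT and 5.03, 5.06 and 5.47 in GPR174-KO, and 0.57 (standard error 0.08, adjusted p = 0.0016). Over the 5 companion lists, 9 genes were called higher and 16 lower, where 27.0% and 27.6% of all tested genes were. The count of 16 was 9 without GPR174-KO replicate 2 and 10 without WT replicate 2, and the count of 9 higher was 15 without WT replicate 3. Both were 0 in the edgeR fit of replicates 1 and 3. Replicates 1 and 2 gave 10 higher and 16 lower, and replicates 2 and 3 gave 8 and 10.

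**Figure D5:**
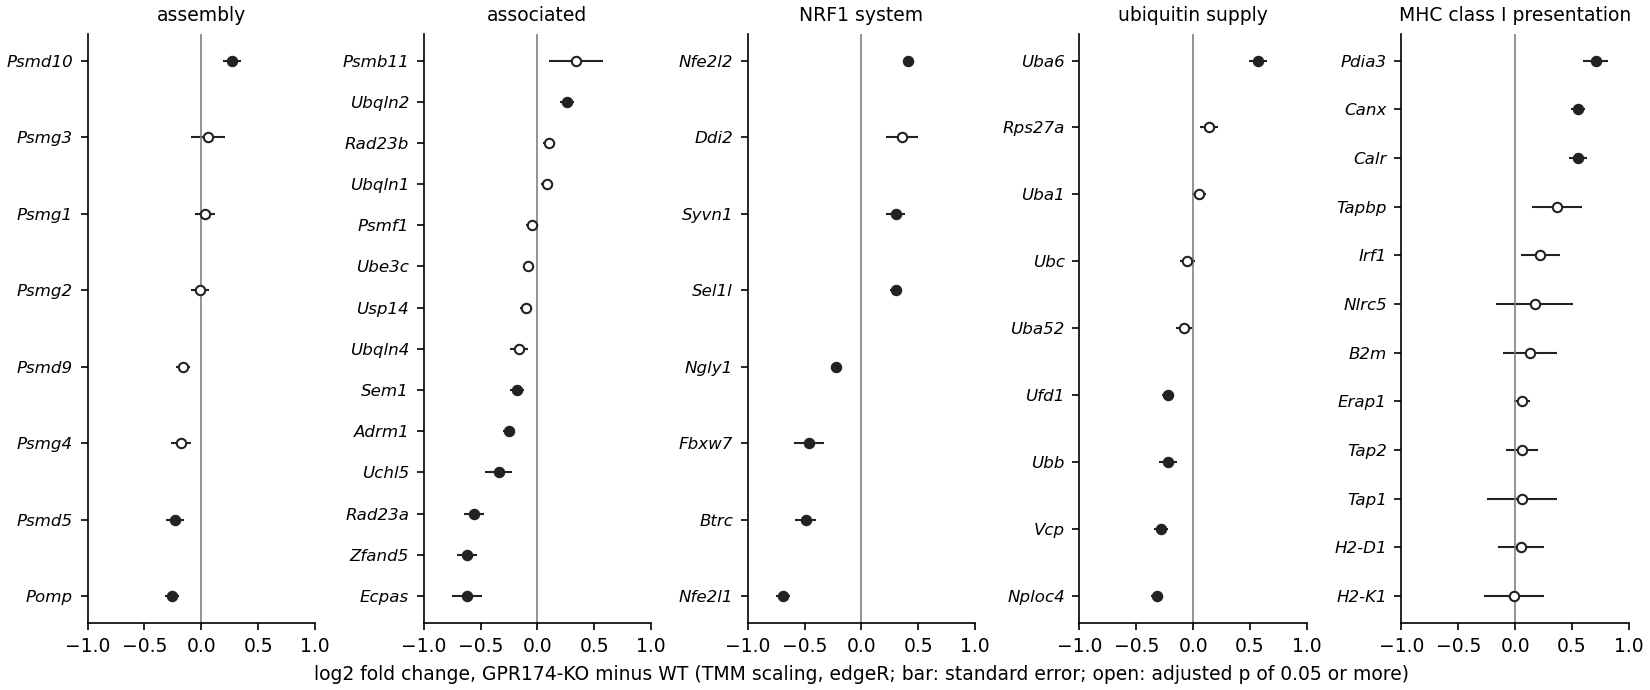
Log2 fold change under TMM scaling (x axis, GPR174-KO minus WT, bars are standard errors) of the genes in 5 companion lists, with filled points for an adjusted p below 0.05. *Nfe2l1* at -0.69 and *Nfe2l2* at 0.41 mark the ends of the NRF1 system, and the called genes of MHC class I presentation are the chaperones *Pdia3*, *Canx* and *Calr*.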

How the data were processed

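RNA of 6 ischemic muscles was sequenced (by BGISEQ in the study's methods, from an Illumina kit per the labels), and the authors deposited 1 table of 58843 RefSeq transcripts. Its expected counts are estimated reads per transcript without normalization, which the authors gave together with FPKM and TPM, both scaled for length and library. The submitters' processing notes name HISAT2 2.0.4, Bowtie2 2.2.5, RSEM 1.2.12 and build GRCm39, and the use of strand is not given in the sources used here. The authors' group means were not used.

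Values were summed over the transcripts of each Entrez gene (62 transcripts for the 38 subunits), and counts were rounded. RefSeq of GRCm38.p6 gave symbols for 99.7% of genes and the promoter windows, and since its build differs from that of the counting, no other coordinates were printed. Genotypes were compared with edgeR 4.0.16 (TMM, filter on low counts, robust quasi-likelihood test, Benjamini-Hochberg adjustment over all tested genes, adjusted p below 0.05) in R 4.3.3. The study used DEGseq with an absolute log2 fold change above 1. Ratios were compared with exact permutation tests in scipy 1.17.1. The edgeR fit with TMM, limma voom and DESeq2 were each tested on simulated counts whose changes were known. The other fits were not tested in this way. The simulation changed few genes, as many up as down, and did not copy the shift in mature fibre genes. It therefore could not check the choice of scaling. Alternatives used DESeq2 1.42.0, limma 3.58.1 (voom, and log2 of FPKM plus 1 or 0.1), other scalings, filters, a 1.2-fold null, a replicate block, and fewer libraries.

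The subunits, companion lists and tests were chosen with earlier results of these data known. All subunits are named. Values per library are given for the immunoproteasome and the subunits it replaces, the activators, the 2 lowest and 2 highest log2 fold changes of each other class, and 5 companion genes plus the lowest and highest called gene of each companion list. Companion values of *Canx*, *Btrc*, *Fbxw7*, *Ngly1*, *Sel1l*, *Syvn1*, *Ddi2* and *Zfand5*, *H2-K1* and the other MHC genes were added after their values were seen. The same holds for *Cd3e*, *Nkg7*, *Vwf*, *Psme2b* and the overlapping genes. The methods give 3 mice per group, while the labels do not tie libraries to mice, so p-values measure only the spread between these libraries, which may be technical. One gene of a companion list is not reported here.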

Additional observations from a re-analysis of the deposited data

How the results depend on the processing

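With total counts, 7 subunits were called higher and 4 lower, 21 companion genes higher and 5 lower, and the subunits' median log2 fold change was 0.03. Of all tested genes, 50.7% were called higher and 14.0% lower with this scaling. Among the subunits and the companion genes named by rule, those that changed sign there were *Psma1* 0.12, *Psma2* 0.14, *Psma4* 0.07, *Psma7* 0.21, *Psmb1* 0.07, *Psmb2* 0.23, *Psmb3* 0.06, *Psmb4* 0.01, *Psmb9* 0.19, *Psmc1* 0.02, *Psmc3* 0.01, *Psmc4* 0.07, *Psmd1* 0.08, *Psmd2* 0.17, *Psmd3* 0.03, *Psmd13* 0.06, *Psmd14* 0.03, *Psme1* 0.13, *Pomp* 0.02, *Usp14* 0.17, *Psmf1* 0.23. With limma on log2(FPKM + 1) and on log2(FPKM + 0.1), the counts were 7 and 4 for subunits and 23 and 4 for companions, the median was 0.03, and the genes that changed sign had the values above except *Psma4* 0.08, *Psma7* 0.20, *Psmb9* 0.25, *Psmc1* 0.03, *Usp14* 0.15, *Psmf1* 0.21 with 1 added, and with 0.1 added *Psmb9* 0.27, *Usp14* 0.16, *Psmf1* 0.23. With total counts without mature fibre genes, 1 subunit was higher and 15 lower, and 14 companions higher and 6 lower. Of all tested genes, 39.6% were higher and 19.5% lower in that fit. The median of the subunits was -0.10, and *Psma2* 0.01, *Psma7* 0.08, *Psmb2* 0.10, *Psmb9* 0.07, *Psmd2* 0.04, *Psme1* 0.00, *Usp14* 0.04, *Psmf1* 0.10 changed sign. Against a 1.2-fold change, 7 subunits were lower, and 5 companions higher and 5 lower, where 16.0% of all tested genes were lower.

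With fewer libraries, replicates 1 and 3 gave 0 calls for subunits and companions. Replicates 1 and 2 gave 3 subunits higher and 27 lower. Replicates 2 and 3 gave 24 subunits lower and 10 companions lower. In these fits the changes of sign were *Psma5* -0.01 (replicates 1 and 3), *Psmb9* 0.15 (replicates 1 and 2) and *Psma5* -0.04, *Psmb10* -0.01, *Tap1* -0.18 (replicates 2 and 3). Leaving out 1 library gave 0 to 3 subunits higher, 18 to 27 lower, 7 to 15 companions higher and 9 to 16 lower, with medians from -0.27 to -0.20. *Psma5* ran from 0.00 to 0.10. *Psmb9* ran from -0.28 to 0.23. *Psmb10* ran from -0.05 to 0.43. *Tap1* ran from -0.22 to 0.47. 

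Over 21 alternatives, 580 of 798 subunit results kept direction and call, 134 lost the call, 16 gained one and 68 changed sign. The cause of these changes was not tested. Same-numbered libraries did not deviate together (correlations 0.0163, -0.0281 and -0.00839, with 2 of 6 libraries closest to their own number), so no pairing by number was seen. With 3 libraries per group, a shared batch could be missed. With a replicate block, 26 subunits were lower, and 7 companions were higher and 12 lower. Every subunit had at least 144 counts in each library. Whether counting or the spread between libraries limits the precision more was not tested.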
